A study of Mus musculus with 16 samples.

Results

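Transcripts of 10 genes of the Notch pathway were followed in cultured mouse aorta and liver: the ligands Jag1, Jag2 and Dll4, the receptors Notch1, Notch2, Notch3 and Notch4, and the target genes Hes1, Hey1 and Heyl. They are 10 of 24011 gene symbols in the deposited count table, and all 10 had reads in each of the 16 libraries. In the GRCm38 annotation all are protein-coding, with Jag1, Dll4 and Notch1 on chromosome 2, Notch2 and Hey1 on 3, Heyl on 4, Jag2 on 12, Hes1 on 16, and Notch3 and Notch4 on 17. The genes were selected on their names and with earlier results of these data in view, among them a higher effect of estradiol on Jag2 in aorta than in liver. That difference is therefore given as a description, with no test.

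The 4 groups, of 4 libraries each, were aorta with estradiol (E2), aorta with vehicle, liver with E2 and liver with vehicle. Donors were female C57BL/6 mice whose ovaries had been removed at the age of 6 to 7 weeks, a state that all groups share, and organs were taken after 1 further week. Aortas, or liver pieces from the tip of the major lobe, were cultured for 4 h in DMEM with 10 nM 17beta-estradiol or with ethanol as vehicle. Per the labels, 8 libraries were prepared from 50 ng of RNA with an Ovation kit, and 8 from 600 ng with a TruSeq poly-A kit, and the TruSeq libraries used a single aorta or liver piece. The series text names a pair of biological replicates per condition, each with tissue of 4 mice, so which libraries are pools is not known, and p-values measure the spread between these libraries only.

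Library names end in n1, n2, o1 or o2. No label explains these endings; they name the libraries here and set the batches, pairs and the n against o comparison, as groups of library names and not as known kits. Reads assigned to genes numbered 6471319 to 16905441 in aorta with E2, 6042073 to 19823982 in aorta with vehicle, 3896733 to 11796977 in liver with E2 and 5210693 to 13078032 in liver with vehicle. The library with the fewest was liver with E2 n2. The ribosomal RNA gene Rn45s took 25.7% to 34.5% of the gene reads in the 4 liver o libraries and 2.94% to 6.2% in the other 12. Summed over 8 smooth muscle markers, aorta with E2 held 10400 to 28700 CPM (counts per 1000000 reads), aorta with vehicle 10900 to 18000, liver with E2 201 to 429 and liver with vehicle 187 to 465. Summed over 8 hepatocyte markers, aorta with E2 held 64.9 to 394 CPM, aorta with vehicle 105 to 613, liver with E2 71100 to 203000 and liver with vehicle 74200 to 131000, so the tissue labels and the markers go together.

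Notch receptors are activated by Jagged or Delta-like ligands on a neighbouring cell. Activation frees the intracellular part of the receptor, which enters the nucleus, joins the DNA-binding protein Rbpj and raises transcription of repressors of the Hes and Hey families. In blood vessels the pathway is known for artery identity, sprouting and the maintenance of smooth muscle, and in liver, where changes in Jag1 or Notch2 cause Alagille syndrome in people, for the formation of bile ducts.

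Estradiol acts through estrogen receptors, which bind DNA at pairs of a short core, GGTCA, read on the other strand as TGACC. The stretches before the start of Dll4 and Notch4 are shown because among the 7 of 10 members matched in RefSeq (GRCm38.p6) they are the ones that hold this core, marked by capitals. They come from that table and are written on the strand of the gene (plus for both). The Dll4 stretch is chr2:119325534-119325783 and the Notch4 stretch chr17:34564045-34564267, which ends 27 bases short of the RefSeq start where an annotated exon begins.
Dll4: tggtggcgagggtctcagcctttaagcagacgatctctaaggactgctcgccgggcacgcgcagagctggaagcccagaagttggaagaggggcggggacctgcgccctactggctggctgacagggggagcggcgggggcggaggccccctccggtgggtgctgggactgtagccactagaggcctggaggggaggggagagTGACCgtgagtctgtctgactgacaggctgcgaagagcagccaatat
Notch4: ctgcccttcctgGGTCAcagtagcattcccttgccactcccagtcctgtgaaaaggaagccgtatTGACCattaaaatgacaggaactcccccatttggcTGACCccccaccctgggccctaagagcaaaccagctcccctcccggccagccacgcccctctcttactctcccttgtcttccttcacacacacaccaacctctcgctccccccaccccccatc
The Dll4 core lies 47 to 43 bases before the RefSeq start. The 3 of Notch4 lie 238 to 234, 185 to 181 and 150 to 146 bases before it. A core on either strand is present in 35.2% of 32851 promoter stretches of 250 bases. The full estrogen response element, a core and its reverse with 3 bases of any kind between them, is present in 0.0639%, and in none of the 7 members in this window. A match is a run of letters, not a measured binding site. Neither gene passed the test for E2 in aorta or liver, as given below.

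Levels came first. Divided by transcript length, in CPM per kilobase (kb) of exon, Hes1 was the most abundant member in all 8 n libraries. Hes1 is a repressor found in many cell types and is also regulated outside the Notch pathway. In n libraries its level per kb was 28.5 in aorta (range 18.6 to 40.1, 4 libraries) and 61.5 in liver (54.3 to 67.8). In the aorta o libraries the places at the top were held by the receptor Notch2, at 13.4 CPM per kb (12 to 17.4), and the ligand Jag1, at 12 CPM per kb (9.54 to 13.8), whose ranges overlap. In the liver o libraries Hes1 (6.08 to 13.3 CPM per kb) and Notch2 (7.71 to 9.43) also overlapped at the top.

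Jag2, a ligand of the Jagged family, was the lowest of the 10 per kb in all 4 aorta o libraries and in all 8 liver libraries. It stood at 0.277 CPM per kb in the aorta o libraries (0.133 to 0.402), 0.149 in the liver o libraries (0.0198 to 0.209) and 0.249 in the liver n libraries (0.0239 to 0.465). In the aorta n libraries it stood at 2.16 CPM per kb (2.07 to 2.36), next to Notch4 at 2.59 (2.13 to 3.7) and Hey1 at 1.85 (1.2 to 2.16), and these 3 ranges touch or overlap.

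Between these ends the order depended on the library ending. In the aorta n libraries Notch1, Notch2, Jag1, Heyl, Dll4 and Notch3 averaged 7.27 to 12.6 CPM per kb, and each overlapped its neighbour in that order. In the aorta o libraries Hey1, Hes1, Notch1, Heyl and Notch3 averaged 2.03 to 3.78 CPM per kb, again overlapping, while Dll4 (0.635) and Notch4 (0.609) lay below them. In the liver n libraries Notch1, Notch3, Dll4, Notch4, Heyl, Jag1 and Notch2 averaged 1.81 to 5.69 CPM per kb with overlapping ranges, and Hey1, at 0.659 (0.279 to 1.05), was second lowest in all 4. In the liver o libraries Notch1 (5.31), Jag1 (4.94) and Hey1 (3.28) came next after the top, and Notch3, Dll4, Notch4 and Heyl averaged 0.921 to 1.42 CPM per kb with overlapping ranges.

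**Figure D1:**
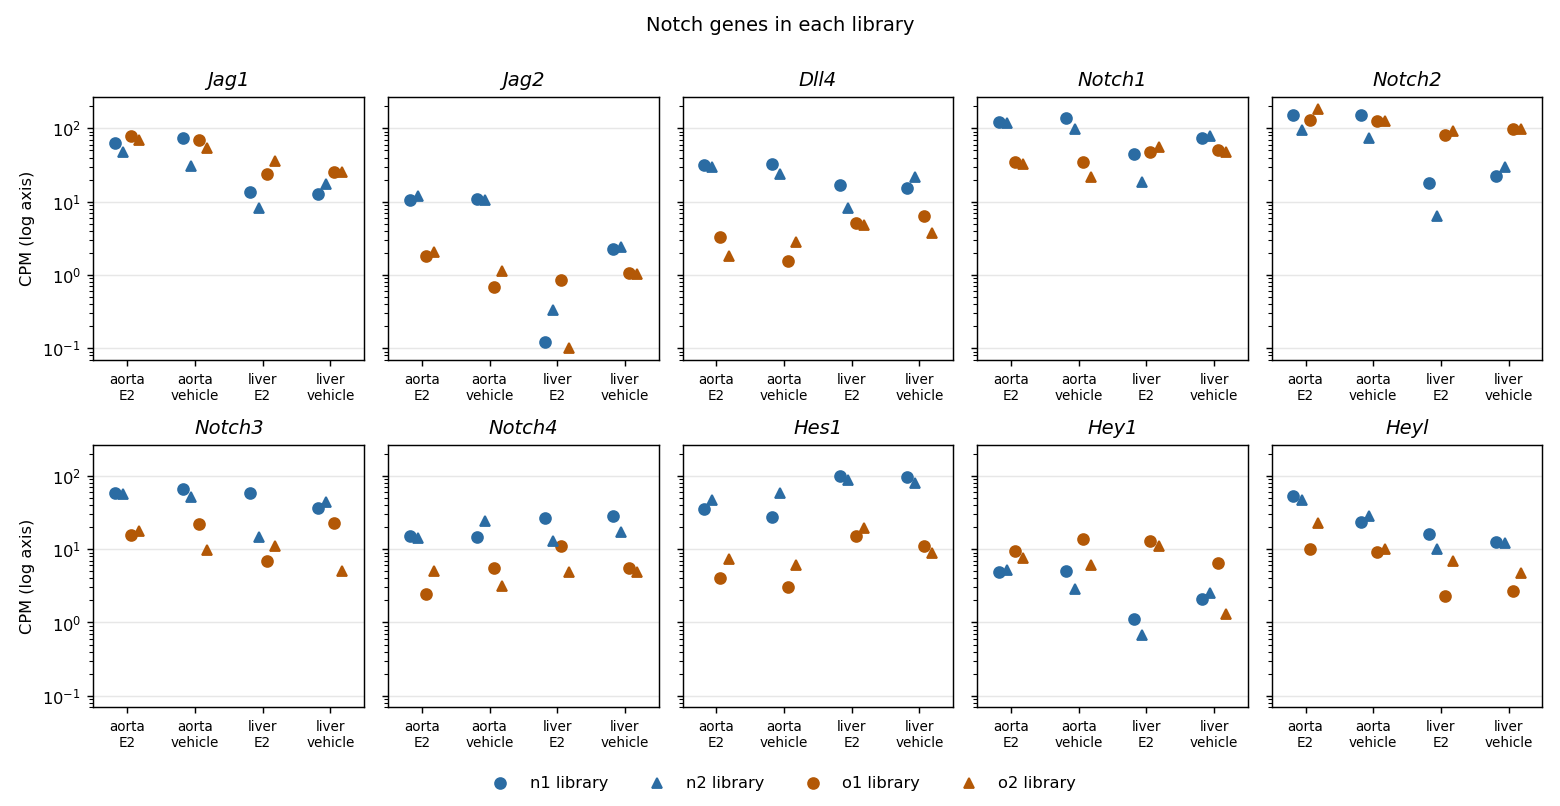
Levels of the 10 Notch genes in CPM (log axis) in each of the 16 libraries, by group; blue marks are n libraries and brown marks o libraries, circles the first and triangles the second of each. Jag1 is higher in aorta than in liver within each ending, Hes1 lower, and Jag2 has its 3 lowest values in liver with E2.

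Aorta was compared with liver within the E2 libraries and, separately, within the vehicle libraries. Jag1, Notch2 and Heyl were higher in aorta and Hes1 was lower, and these 4 genes passed the test in both comparisons. A gene passed with an adjusted p under 0.05 (Benjamini-Hochberg, edgeR quasi-likelihood test over all genes) and an absolute log2 fold change over 1. In vehicle libraries 3 of 10 members passed as higher and 1 as lower, where 24.1% of 12607 genes passed as higher and 23.4% as lower. In E2 libraries, with Jag2 left aside because it was chosen on values that enter here, 3 of 9 passed as higher and 1 as lower, where 26.3% of 13061 genes passed as higher and 22% as lower. In the vehicle count Jag2, whose vehicle values also enter that choice, is among the members that did not pass. The median log2 fold change over all 10 members, Jag2 counted, was 0.82 with E2, against 0.16 over all genes tested. With vehicle it was 0.83, against 0.05 over all genes. With shares of this size in the background, the counts do not set the members apart.

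Jag1, the ligand with a broad vascular role, had 63.3, 48.2, 77.6 and 69.6 CPM in aorta with E2 (n1, n2, o1 and o2, the order kept throughout) and 13.6, 8.11, 24.2 and 35.4 CPM in liver with E2. With vehicle it had 74.4, 30.4, 68.8 and 53.5 CPM in aorta and 12.8, 17.4, 25.6 and 25.6 CPM in liver. Every aorta library lay above every liver library of the same treatment. The log2 fold change, aorta over liver, was 1.90 ± 0.38 (SE, adjusted p = 0.00246, edgeR) with E2 and 1.49 ± 0.34 (adjusted p = 0.00333, edgeR) with vehicle. In bulk tissue, fewer cells that make a transcript and less transcript per cell cannot be told apart, here and in the results that follow.

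Notch2, the receptor paired with Jag1 in bile duct formation, had 154, 93.8, 129 and 183 CPM in aorta with E2 and 18, 6.42, 81 and 92.1 CPM in liver with E2. With vehicle it had 150, 73.4, 127 and 126 CPM in aorta and 22.2, 29.3, 99 and 98 CPM in liver. The aorta libraries varied little by ending, while the liver n libraries were far below the liver o libraries. With E2 the tissues did not overlap; with vehicle the aorta n2 library lay below both liver o libraries. The log2 fold change was 2.12 ± 0.60 (adjusted p = 0.0151, edgeR) with E2 and 1.20 ± 0.41 (adjusted p = 0.0268, edgeR) with vehicle. In vehicle libraries it was 1.97 in the n libraries alone and 0.35 in the o libraries alone, and with E2 3.15 and 0.82. The call was lost in the o libraries alone (adjusted p = 0.0644 with E2 and 0.315 with vehicle, edgeR), on leaving out liver with E2 n1 (0.0912), liver with vehicle n1 (0.0925) or n2 (0.0903), and on leaving out aorta with vehicle n1, where the log2 fold change was 0.83. It was also lost without the batch term (adjusted p = 0.231 with E2 and 0.333 with vehicle, edgeR). With E2 it was lost with no filter on low counts too (2.11, adjusted p = 0.053, edgeR).

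Heyl, a Hey family repressor that is a target of Notch3 in smooth muscle, had 52.8, 47.1, 10.1 and 22.8 CPM in aorta with E2 and 15.9, 10.1, 2.31 and 6.98 CPM in liver with E2. With vehicle it had 23.3, 28.4, 9.02 and 9.9 CPM in aorta and 12.4, 12, 2.67 and 4.77 CPM in liver. The tissues overlapped over all libraries and did not within an ending, n or o. The log2 fold change was 1.98 ± 0.34 (adjusted p = 0.000963, edgeR) with E2 and 1.18 ± 0.34 (adjusted p = 0.0113, edgeR) with vehicle. In the vehicle libraries of a single ending the call was lost, at 0.93 in n (adjusted p = 0.0652, edgeR) and 1.35 in o (0.064).

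Hes1 was the member that was lower in aorta. It had 35.2, 46.3, 4.08 and 7.31 CPM in aorta with E2 and 99.7, 86.9, 15 and 19.5 CPM in liver with E2. With vehicle it had 27.3, 58.9, 3.06 and 6.02 CPM in aorta and 95.2, 79.8, 10.9 and 8.94 CPM in liver. The aorta level was below the liver level of the same ending in 8 of 8 pairs of libraries, at 0.273 to 0.738 of it. The log2 fold change was −1.33 ± 0.32 (adjusted p = 0.00622, edgeR) with E2 and −1.10 ± 0.35 (adjusted p = 0.0194, edgeR) with vehicle. The vehicle value sat close to the threshold. It ran between −1.39 and −0.79 when single libraries were left out, and the call was lost without aorta o1 or n1 or liver o1, n1 or n2, without Rn45s (−0.96), with a filter of 1 CPM in 4 libraries (adjusted p = 0.03, edgeR, with the fold change short of the threshold), without the batch term (adjusted p = 0.545, edgeR) and in o libraries alone (−1.14, adjusted p = 0.116, edgeR).

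Dll4, the Delta-like ligand of sprouting and arterial endothelium, and the receptor Notch1 gave opposite tissue differences in n and o libraries. Dll4 had 31.5, 29.5, 3.33 and 1.8 CPM in aorta with E2 and 16.7, 8.11, 5.19 and 4.86 CPM in liver with E2. Notch1 had 123, 120, 34.6 and 32.2 CPM in aorta with E2 and 44.5, 18.3, 47.3 and 55.5 CPM in liver with E2. Both were higher in aorta in 4 of 4 pairs of n libraries and in 0 of 4 pairs of o libraries, counted over E2 and vehicle. With vehicle, Dll4 had 32.2, 24, 1.53 and 2.86 CPM in aorta and 15.6, 21.7, 6.41 and 3.76 CPM in liver. Notch1 had 138, 98.1, 34.9 and 21.7 CPM in aorta and 73.4, 79.8, 50.7 and 48.2 CPM in liver with vehicle. Over all libraries neither passed, with log2 fold changes of 0.27 ± 0.56 (Dll4) and 0.74 ± 0.59 (Notch1) with E2 and −0.19 ± 0.45 and −0.13 ± 0.35 with vehicle. Without Rn45s the Notch1 vehicle value was 0.01. In n libraries alone with E2 both passed, Dll4 at 1.12 (adjusted p = 0.0132, edgeR) and Notch1 at 1.80 (adjusted p = 0.000692, edgeR), whereas o libraries alone gave −1.06 and −0.63. The difference between the endings itself was not tested. Exons of Dll4 overlap those of Gm14207 on the other strand by 214 bases in the GRCm38 annotation, and Notch1, Notch2 and Notch3 also share exon bases with other annotated genes. No source used here gives the strand setting of the counting, and reads of such partners cannot be told apart.

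Notch3, the receptor of vascular smooth muscle, did not pass, at 0.85 ± 0.43 with E2 and 0.48 ± 0.30 with vehicle on the log2 scale. It was higher in aorta in 7 of 8 pairs of libraries, whereas the smooth muscle markers passed in 8 of 8 genes with a median log2 fold change of 6.21 with E2 and 6.04 with vehicle. Notch4, a receptor found mainly in endothelium, was higher in aorta in 3 of 8 pairs, with log2 fold changes of −0.61 ± 0.45 with E2 and −0.30 ± 0.36 with vehicle. Hey1, a Hey family repressor, was higher in aorta in 6 of 8 pairs, at 0.80 ± 0.63 with E2 and 1.18 ± 0.47 with vehicle. Its vehicle value just missed the threshold (adjusted p = 0.0526, edgeR) and passed with DESeq2 (adjusted p = 0.0253). With E2 it passed in n libraries alone, at 2.28 (adjusted p = 0.00523, edgeR), and was −0.52 in o libraries alone.

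Jag2 had 10.7, 12.1, 1.82 and 2.05 CPM in aorta with E2 and 0.122, 0.338, 0.864 and 0.101 CPM in liver with E2. With vehicle it had 10.8, 10.6, 0.681 and 1.12 CPM in aorta and 2.25, 2.38, 1.07 and 1.02 CPM in liver. With E2 the tissues did not overlap, and with vehicle the aorta o1 library lay below all 4 liver libraries. Its log2 fold change, aorta over liver, was 4.24 ± 0.85 with E2 and 1.18 ± 0.59 with vehicle, given as a description because these values enter the difference on which Jag2 was chosen.

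Markers of some cell types that carry Notch genes differed between the tissues too, while the endothelial markers went both ways. Summed over 12 endothelial markers, aorta with E2 held 940 to 1280 CPM, aorta with vehicle 1110 to 1130, liver with E2 514 to 1010 and liver with vehicle 661 to 1010, and none was at 0 in a whole group. Summed over 7 sinusoidal endothelial markers, aorta with E2 held 19.4 to 94 CPM, aorta with vehicle 21.3 to 119, liver with E2 876 to 1870 and liver with vehicle 1110 to 1820. For 6 bile duct markers the sums were 30.6 to 62.8 CPM in aorta with E2, 39 to 49.6 in aorta with vehicle, 71.7 to 149 in liver with E2 and 71 to 182 in liver with vehicle. Of the 12 endothelial markers 5 passed as higher in aorta and 2 as lower with E2, and 3 and 2 with vehicle. All 7 sinusoidal markers passed as lower in both. Of 5 bile duct markers tested, 4 passed as lower in both, and 1 as higher with E2. Over all genes 26.3% passed as higher and 22% as lower with E2, and 24.1% and 23.4% with vehicle. The part of these cell types in the tissue differences was not tested.

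**Figure D2:**
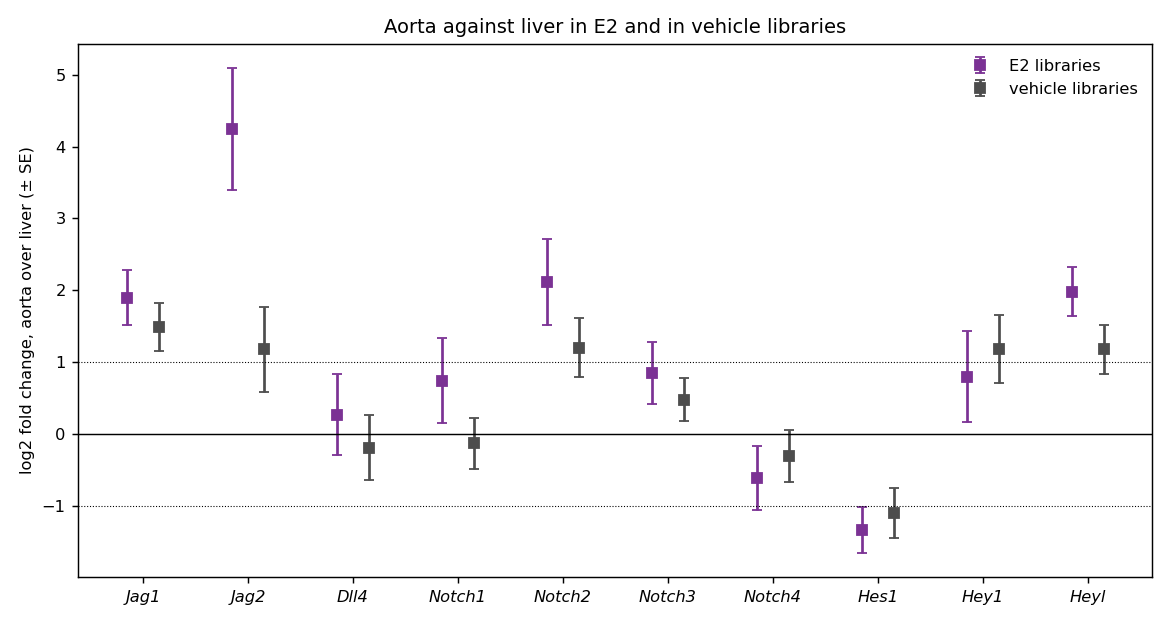
Log2 fold change of each gene, aorta over liver, with its SE, in E2 libraries (left square of each gene, purple) and vehicle libraries (right square, grey), 4 libraries per tissue; dotted lines mark a log2 fold change of 1 and −1. Jag1, Notch2 and Heyl lie above 1 and Hes1 below −1 in both, and Jag2 stands at 4.24 with E2 and 1.18 with vehicle.

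Other genes of the pathway, 59 in all, were read the same way. With E2, 45 were tested, of which 15 passed as higher in aorta and 6 as lower, against the 26.3% and 22% of all genes given above, and the median log2 fold change was 0.70, against 0.16 over all genes. With vehicle, 45 were tested, of which 10 passed as higher and 7 as lower, against 24.1% and 23.4% of all genes, and the median was 0.21, against 0.05. In the nuclear complex, Rbpj passed as higher in aorta (log2 fold change 2.31 ± 0.54 with E2 and 1.86 ± 0.52 with vehicle), as did the coactivators Maml1 (1.75 ± 0.45 and 1.23 ± 0.37) and Maml2 (3.64 ± 0.57 and 2.74 ± 0.35). Sharpin was on the same list and in these counts, but is known as part of a ubiquitin ligase, and nothing here places it in this complex. It passed as lower (−1.72 ± 0.40 and −1.73 ± 0.35).

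Among further targets, Hey2, an arterial Hey repressor, was higher in aorta by 4.88 ± 0.56 with E2 and 3.54 ± 0.54 with vehicle on the log2 scale, and so was Efnb2, a ligand that marks arterial endothelium (2.56 ± 0.48 and 3.09 ± 0.66). Hes6, which opposes Hes1, was lower (−4.53 ± 0.41 and −3.89 ± 0.47). Gata2 passed as higher with E2 (2.27 ± 0.55). Mfap5, a microfibril protein that can bind Jagged ligands and is made by fibroblasts, was higher by 7.81 ± 0.63 with E2 and 7.65 ± 0.57 with vehicle, and Mfap2 passed with E2 (2.05 ± 0.47). The ligand-like Dlk1 also passed in both, with 30 to 48 reads per library in aorta with E2 against 0 or 1 in liver with E2, and 25 to 65 in aorta with vehicle against 0 in all 4 liver vehicle libraries.

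The enzymes that add sugars to Notch split: Rfng, a fringe enzyme, was lower in aorta (−2.18 ± 0.57 with E2 and −1.80 ± 0.48 with vehicle on the log2 scale), and Poglut1 passed as higher with E2 (1.63 ± 0.48). Mib2, a ubiquitin ligase that acts on Notch ligands, was lower (−1.78 ± 0.38 and −1.43 ± 0.35). Of the genes that hold the pathway back, the adaptor Numbl (2.79 ± 0.50 and 2.76 ± 0.37) and the repressor Bcl6 (2.06 ± 0.39 and 1.36 ± 0.34) were higher in both, and with vehicle the Deltex family genes Dtx4 (−1.60 ± 0.45) and Dtx3l (−1.47 ± 0.43) were lower.

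E2 was then set against vehicle within each tissue. None of the 10 members passed in aorta and none of the 9 tested passed in liver, at an edgeR adjusted p under 0.05. In the background, 0% of 13698 genes passed in aorta and 0% of 11726 in liver, so the test gave no call at any gene. At an unadjusted p under 0.05, 495 genes (3.61%) passed in aorta and 502 (4.28%) in liver. DESeq2 gave 24 calls in aorta and 0 in liver, none of them a member.

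Heyl was the member with the largest E2 difference in aorta. As given above it had 52.8, 47.1, 10.1 and 22.8 CPM with E2 and 23.3, 28.4, 9.02 and 9.9 CPM with vehicle, or 33.2 ± 20.1 and 17.6 ± 9.68 CPM (SD, 4 libraries each). It was higher with E2 in 4 of 4 pairs of the same ending, by 1.12 to 2.31 times, and within n and within o the treatments did not overlap. The log2 fold change was 0.84 ± 0.21, with an adjusted p of 0.97 by edgeR and an unadjusted p of 0.0029; 40 genes had a smaller p. Other settings gave adjusted p-values of 0.132 to 1. In liver Heyl had 15.9, 10.1, 2.31 and 6.98 CPM with E2 and 12.4, 12, 2.67 and 4.77 CPM with vehicle, higher in 2 of 4 pairs. Summed smooth muscle markers in aorta were 10400, 13100, 13000 and 28700 CPM with E2 and 10900, 12100, 15200 and 18000 CPM with vehicle (n1, n2, o1 and o2), and their part in the Heyl difference was not tested.

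The other members had smaller differences in aorta, with log2 fold changes of −0.30 to 0.43 and, Jag2 aside, edgeR adjusted p-values of 1. The median over all 10, with Jag2 counted although it was chosen on its E2 values, was 0.13, against −0.01 over all genes tested. Of the 10 fold changes 9 were positive, that of Jag2 among them, where 6670 of 13698 genes tested were positive. A joint shift of the members was not tested. Notch2 was higher with E2 in 4 of 4 pairs by 1.02 to 1.46 times, at 140 ± 37.9 CPM with E2 and 119 ± 32.3 CPM with vehicle (SD, 4 libraries each). Jag1 had 64.7 ± 12.5 CPM with E2 and 56.8 ± 19.7 CPM with vehicle and was higher in 3 of 4 pairs. Notch4 was the member with a negative value, at −0.30. By pair, 9 of 10 members were higher with E2 in o2, 8 in n2, 6 in o1 and 4 in n1. The share of all genes that were higher in each pair was not counted, so these counts have no background beside them. In o2 and n2 the E2 minus vehicle differences of all genes were also larger for longer transcripts (Spearman rho 0.22 and 0.28 across genes, which are not replicates), with rho −0.12 in o1 and 0.05 in n1.

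In liver 5 of the 9 tested members had a negative log2 fold change and 4 (Notch4, Hes1, Hey1 and Heyl) a positive one. Over all genes tested, 5943 of 11726 were negative. The median over the members was −0.11, against −0.01 over all genes tested. Notch1 had 44.5, 18.3, 47.3 and 55.5 CPM with E2 and 73.4, 79.8, 50.7 and 48.2 CPM with vehicle, a log2 fold change of −0.61 ± 0.30 (adjusted p = 0.939, edgeR). With E2 both n libraries and o1 lay below all vehicle libraries, and o2 did not. Notch2 was lower with E2 in 4 of 4 pairs, at 0.219 to 0.939 of the vehicle level (log2 fold change −0.57 ± 0.27). Hes1 was higher with E2 in 4 of 4 pairs, by 1.05 to 2.18 times, with a log2 fold change of 0.42 ± 0.23. Hey1 was higher in both o pairs (13 and 11 CPM with E2, against 6.41 and 1.32 CPM with vehicle) and lower in both n pairs (1.1 and 0.676 CPM with E2, against 2.07 and 2.53 CPM with vehicle).

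The n2 pair stood apart from the other liver pairs. In it 9 of 10 members were lower with E2, with a median difference of −1.20 on the log2(CPM + 1) scale. The medians of the members were −0.01 in n1, −0.12 in o1 and 0.38 in o2. How many of all genes were lower with E2 in each pair was not counted, so the count of members has no background beside it. Liver with E2 n2 was the library with the fewest reads. In that pair genes with transcripts of 5 kb or more had a median difference of −0.64, against −0.10 for shorter ones (Spearman rho with length −0.40). The n1 pair had −0.01 for the longer and 0.20 for the shorter ones (rho −0.22), and rho was 0.02 in o1 and 0.08 in o2. Without liver with E2 n2 or another single library, the Notch1 log2 fold change ran between −0.90 and −0.29 and that of Notch2 between −0.76 and −0.33. The part of transcript length in these values was not tested further than by the correction for length and GC content, under which no member passed.

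**Figure D3:**
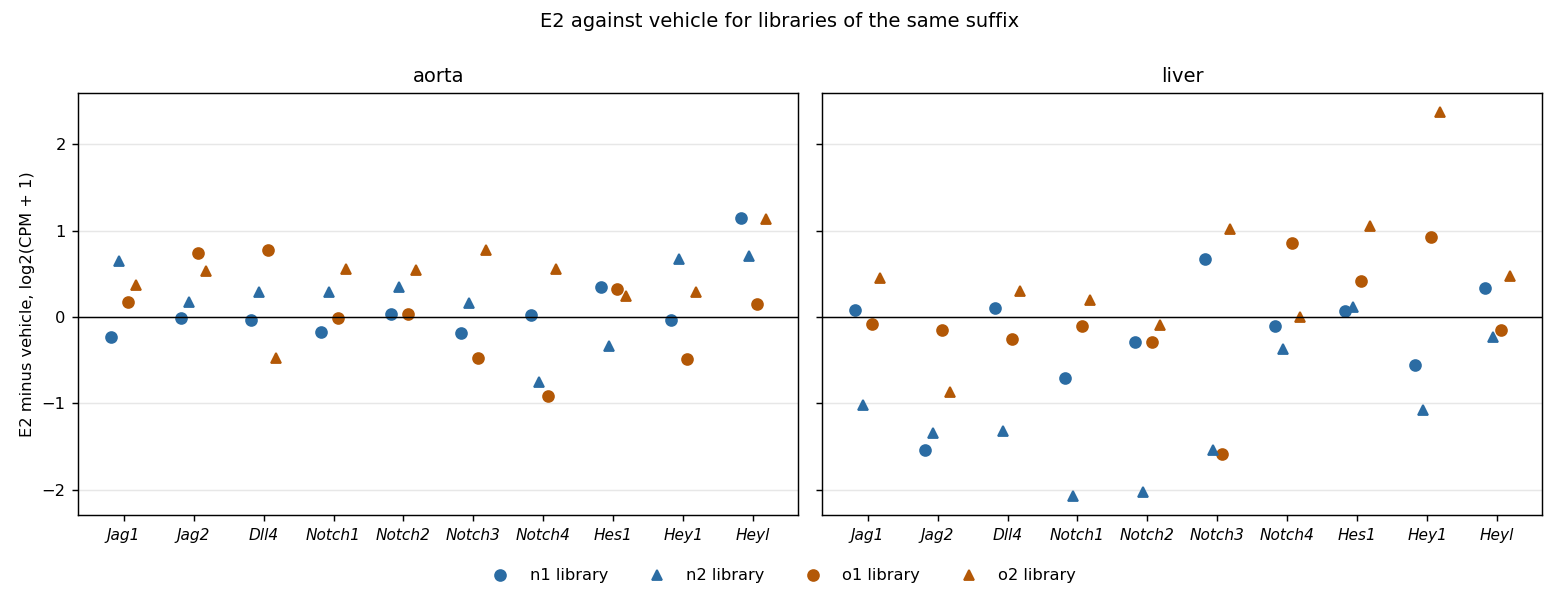
E2 minus vehicle difference of log2(CPM + 1) for libraries of the same ending, in aorta (left) and liver (right); blue marks are n and brown marks o libraries, circles the first and triangles the second. In aorta all 4 Heyl values are above 0; in liver all 4 Jag2 and Notch2 values are below 0, and the n2 values are the lowest of Notch1 and Notch2.

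Jag2 was chosen for its E2 effect, and its values are a description. In aorta the summed counts over 4 libraries were 626 with E2 (95% Poisson interval 578 to 677) and 432 with vehicle (392 to 475), or 8.52 CPM with E2 and 6.72 CPM with vehicle over the pooled libraries. In liver they were 6 with E2 (2.2 to 13.1) and 41 with vehicle (29.4 to 55.6), or 0.245 CPM with E2 and 1.62 CPM with vehicle. These intervals cover counting error only and treat unlike libraries as a single count. In aorta Jag2 averaged 11.4 CPM in n and 1.93 CPM in o libraries with E2, and 10.7 and 0.899 CPM with vehicle. The pooled CPM weight libraries by depth, and so depend on the mix of n and o reads. The mean over the aorta libraries was 6.65 ± 5.47 CPM with E2 and 5.78 ± 5.64 CPM with vehicle (SD). By library the liver counts were 1, 1, 3 and 1 with E2 and 12, 15, 4 and 10 with vehicle, so that 3 liver libraries with E2 held a single read and the groups did not overlap in CPM. With so few reads Jag2 did not pass the filter on low counts in the liver comparison and was not tested there.

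In the fit over all 16 libraries the Jag2 log2 fold change, E2 over vehicle, was 0.49 ± 0.41 in aorta and −2.56 ± 0.63 in liver. The difference, aorta minus liver, was 3.04 ± 0.75. It thus came mainly from liver, where E2 libraries held 6 reads in all, and less from aorta, where the fitted fold was 1.4, against 0.17 in liver. In aorta Jag2 was higher with E2 in 3 of 4 pairs, by 2.67 and 1.84 times in o1 and o2, where it was scarce, and at 0.992 and 1.14 of the vehicle level in n1 and n2. In liver it was lower with E2 in 4 of 4 pairs, least in o1 (0.81 of the vehicle level). On leaving out single libraries the difference ran between 2.48, without liver with E2 n1, and 3.96, without liver with vehicle o1. Over all genes the difference between the tissues' E2 effects passed at 0% of 14190 genes (smallest edgeR adjusted p 0.218).

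The same difference was 0.79 for Notch2, 0.76 for Notch1 and 0.65 for Heyl on the log2 scale, and 0.37 for Dll4, 0.28 for Jag1 and 0.22 for Notch3. It was −0.55 for Hey1, −0.39 for Notch4 and −0.33 for Hes1, and these too are descriptions. For Notch2, E2 was higher than vehicle in all 4 aorta pairs, though only by 1.02 and 1.03 times in o1 and n1. It was lower in all 4 liver pairs, at 0.939 of the vehicle level in o2 and 0.219 in n2.

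Of the 59 other pathway genes, 50 were tested for E2 in aorta and 38 in liver, and none passed. Those with the smallest unadjusted p in aorta were Neurl3, a relative of the ubiquitin ligases that act on Notch ligands (−0.69 ± 0.23 on the log2 scale), Hey2 (0.64 ± 0.24) and the Deltex gene Dtx1 (−1.54 ± 0.62), each with an edgeR adjusted p of 1. In liver they were Hes6 (1.08 ± 0.35), the repressor Snai2 (−1.43 ± 0.50) and the coactivator Ep300 (−0.58 ± 0.25), each with an edgeR adjusted p of 0.939. The median log2 fold change of the other pathway genes was 0.07 in aorta, with 31 of 50 positive, and −0.18 in liver, with 11 of 38 positive. Over all genes tested it was −0.01 in both tissues, with 6670 of 13698 genes positive in aorta and 5783 of 11726 in liver. A shift of the pathway genes as a set was not tested.

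The library ending moved most members further than E2 did. In aorta 7 of 10 members passed as higher in n than in o libraries and 1 as lower, where 33% of 13698 genes passed as higher and 28.1% as lower. In liver 5 of 9 passed as higher and 3 as lower, where 33.7% of 11726 genes passed as higher and 35.7% as lower. Dll4, Notch3, Notch4, Hes1 and Heyl were higher in n libraries of both tissues, and Hey1 was lower in both. Since n and o may differ in kit, RNA amount and instrument, and the labels do not say which, the causes cannot be told apart.

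Dll4 in aorta was the largest case, with 31.5, 29.5, 32.2 and 24 CPM in n libraries and 3.33, 1.8, 1.53 and 2.86 CPM in o libraries (E2 pair, then vehicle pair). Its log2 fold change, n over o, was 3.48 ± 0.29 (adjusted p = 1.48e-06, edgeR) in aorta and 1.53 ± 0.38 (adjusted p = 0.00151, edgeR) in liver. Hes1 followed with 2.85 ± 0.36 in aorta and 2.69 ± 0.26 in liver, and Jag2 with 2.84 ± 0.32 in aorta. Notch3 (1.75 ± 0.25 in aorta and 1.68 ± 0.44 in liver), Notch4 (1.95 ± 0.32 and 1.64 ± 0.38) and Heyl (1.38 ± 0.28 and 1.46 ± 0.41) had fold changes of like size in both tissues.

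Notch1, Notch2 and Jag1 had unlike values in the tissues. Notch1 was higher in n libraries of aorta by 1.86 ± 0.21 on the log2 scale and had −0.12 ± 0.31 in liver. Notch2 had −0.38 ± 0.27 in aorta, which did not pass, and −2.43 ± 0.30 in liver (adjusted p = 8.16e-07, edgeR). Jag1 had −0.42 ± 0.26 in aorta, which did not pass, and −1.19 ± 0.30 in liver. Hey1 had −1.11 ± 0.31 and −2.17 ± 0.69. Whether these differences between n and o differ by tissue was not tested. The GC content of the transcript was 61.87% for Jag2, 61.24% for Notch4, 50.68% for Hes1 and 48.77% for Jag1, and its part in these differences was not tested.

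**Figure D4:**
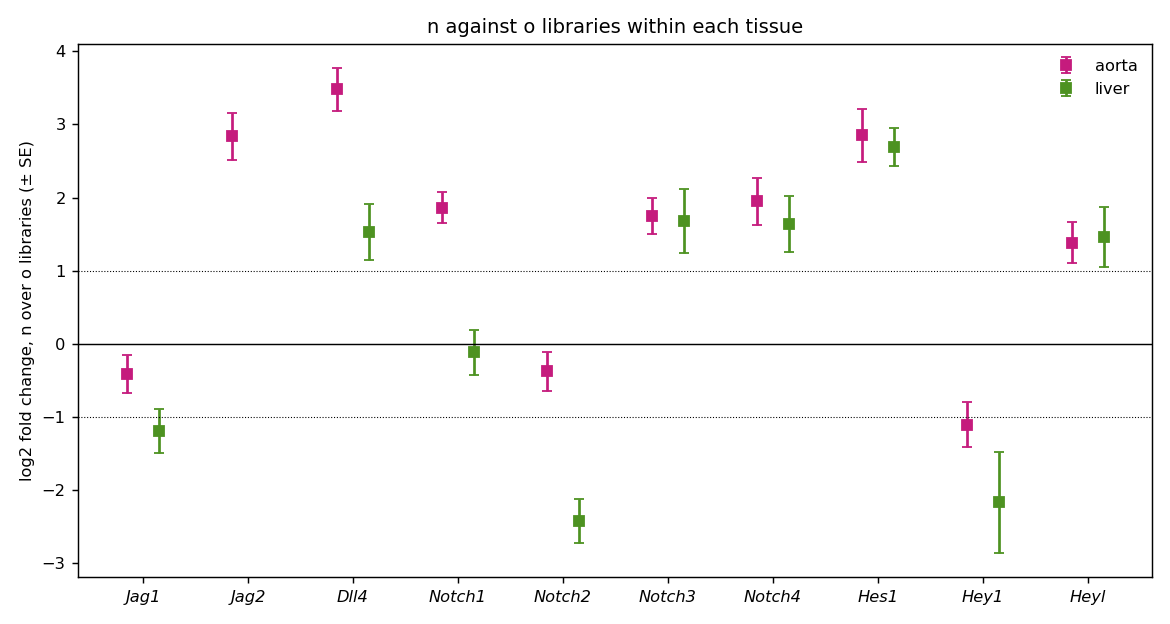
Log2 fold change of each gene, n over o libraries, with its SE, in aorta (left square of each gene, pink) and liver (right square, green); dotted lines mark 1 and −1. Dll4 reaches 3.48 in aorta and Notch2 −2.43 in liver; Jag2 has no liver value because it was not tested there.

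Likeness between members was measured over the 8 aorta libraries, as Pearson r of log2(CPM + 1) after the mean of each batch (o1, o2 and n) was subtracted. This leaves few degrees of freedom, and the libraries share their batch and depth, so r is a description. Jag1 and Notch2 were the most alike (r = 0.95), followed by Notch1 and Notch3 (0.85) and by Hey1 with Notch3 (0.72). Heyl was most like Jag2 among the members (0.50). Among 12572 genes the 5 most like Jag2, each with r = 0.99, were Zfp128, Harbi1, Gm16039, Gadd45a and 4732491K20Rik. Their E2 log2 fold changes in aorta were 0.24 to 0.77, which the choice partly fixed. In aorta the o1 and o2 batches each hold a single library per treatment. What is left there after the batch mean is the E2 minus vehicle difference, and Jag2 itself was chosen on E2 values. A high r with Jag2 thus picks genes that move with E2 in a like way, and these fold changes are no separate result.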

How the data were processed

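RNA-seq reads of 16 libraries were, per the submitters' processing notes, aligned with Bowtie 0.12.5 to mm9 and counted with HTSeq 0.4.5p7; edgeR 3.4.2 was also named. No source used here gives the annotation, strand setting or filters. The authors deposited counts per gene symbol, entered here as estimated counts because each column ends with a percentage; all gene values were whole. The 8 lines that name no gene stayed out (reads in no gene were 48.0% to 75.2% of a library, ambiguous reads 0.0452% to 0.523%).

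Members and gene lists were chosen with earlier results of these data known. Tests used edgeR 4.0.16 in R 4.3.3 on the counts (glmQLFit, glmQLFTest, TMM, filterByExpr with a minimum count of 10 and total of 15) over all genes, with a batch of 3 levels (o1, o2, n) as covariate, or treatment for n against o. A gene was called at a Benjamini-Hochberg adjusted p under 0.05, plus, for tissue and for n against o, a log2 fold change beyond 1 or −1. CPM use TMM library sizes; CPM per kb use GENCODE union exon length on GRCm38 (98.3% of symbols matched). SE was obtained by dividing the log2 fold change, without its sign, by the root of F. The tests were tried on simulated data with a single fixed spread and no effect of batch. Such data do not show how the tests do on these libraries. Named pathway genes are, per list, up to 4 past the threshold by smallest p, and for E2 the 3 with the smallest p per tissue. The enzymes that process the receptor are in the counts and are not reported gene by gene here.

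Columns were assigned to groups by tissue and treatment. Same-ending E2 and vehicle libraries correlated in their deviations from the group mean (r 0.89 to 0.93 in aorta, 0.84 to 0.90 in liver); with the mean of the letter removed, r was 0.50 (o) and 0.43 (n) in aorta and 0.25 and −0.05 in liver. No label states a pairing, so the block was an alternative, beside DESeq2 1.42.0, limma 3.58.1, other scalings and filters, length and GC offsets, single endings and leaving out each library.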

Additional observations from a re-analysis of the deposited data

Results flagged for a closer look

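Notch3 in liver with E2 had one library far above the others: 58.3 CPM in n1, against 14.5, 6.92 and 11.1 CPM in n2, o1 and o2. The gap to the next library was 0.852 of the group's range, above the 95% critical value of Dixon's test for 4 values. It was 1 of 40 groups of 4 libraries examined over the 10 genes, and chance gives about 1 in 20 for values of a single distribution. These groups mix n and o libraries, so that rate need not hold here. With vehicle the Notch3 values in liver were 36.2 and 44 CPM in n1 and n2 and 22.7 and 4.98 CPM in o1 and o2.

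The E2 difference of Notch2 had opposite signs in the tissues, with a difference, aorta minus liver, of 0.79 on the log2 scale. It was higher with E2 in 4 of 4 aorta pairs, but only by 1.02 and 1.03 times in o1 and n1. It was lower in 4 of 4 liver pairs, from 0.939 of the vehicle level in o2 to 0.219 in n2. Notch2 has 10.5 kb of exon. Differences of all genes rose with length in aorta o2 and n2 and fell with length in liver n1 and n2, as given above. How many of all genes have opposed pairs was not counted. The edgeR interaction test called none of 14190 genes. The value for Notch2 is given as a description with no test of its own, since the members were picked with results of this contrast in view.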

How the results depend on the processing

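The number of genes called for E2 in aorta, 0 with edgeR, was 24 with DESeq2, 12 with the replicate block (the library ending as a block), 33 in the o libraries alone, 17 with the block and a length and GC offset, and 0 to 17 when single libraries were left out. In liver, also 0, it was 6 with no filter, 5 in the o and 1 in the n libraries alone, and 0 to 1 without single libraries. The tissue difference in E2 effect, 0, gave 12 with DESeq2, 1 with the replicate block, 2 in the o libraries alone, 1 with a length and GC offset, 1 with both, and 0 to 4 without single libraries. No member was called for E2 under any of these settings, and the block changed no call of a member.

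For aorta against liver, the calls over all genes were 2655 without the batch term against 6302 with it (E2), and 2447 against 5986 (vehicle). The 5 member calls with E2 (Jag2 counted) became 1 without the batch term, 3 in o and 8 in n libraries alone. The 4 with vehicle became 0, 2 in o libraries alone, and 2 to 5 without single libraries, with 2 left (Jag1 and Heyl) without aorta n1, liver n1 or liver n2. Without Rn45s the vehicle median over all genes was 0.19 in place of 0.05, Hes1 lost its call at −0.96 and Hey1 gained one at 1.31.

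Several members turned sign on the log2 scale, and the cause was not tested. For E2 in aorta these were, without the batch term, Notch3 (−0.01), Hes1 (−0.05) and Hey1 (−0.03); in n libraries alone Notch3 (−0.03) and Hes1 (−0.08); in o libraries alone Hey1 (−0.09); and Notch3 with the length and GC offset (−0.02) and with the replicate block added (−0.01). For E2 in liver they were Jag1 with limma voom (0.03), without the batch term (0.01) and in o libraries (0.23), Notch4 without the batch term (−0.02) and in n libraries (−0.22), Dll4 (0.07) and Notch1 (0.07) in o libraries, and Hey1 in n libraries (−1.32). For aorta against liver with E2, the o libraries alone gave Dll4 −1.06, Notch1 −0.63 and Hey1 −0.52. With vehicle, Notch1 was 0.01 without Rn45s, 0.19 without the batch term and 0.48 in n libraries, and Dll4 was 0.11 with limma voom, 0.31 without the batch term and 0.45 in n libraries.

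Leaving out single libraries gave these ranges where the sign turned. For E2 in aorta, Dll4 ran between −0.11 and 0.31, Hes1 between −0.07 and 0.45, Hey1 between −0.05 and 0.33, Jag1 between −0.02 and 0.52, and Notch3 between −0.19 and 0.24. For E2 in liver, Hey1 ran between −0.29 and 1.07, Jag1 between −0.34 and 0.05, Notch3 between −0.71 and 0.26, and Notch4 between −0.13 and 0.35. For aorta against liver, Dll4 ran between −0.27 and 0.73 with E2 and between −0.42 and 0.38 with vehicle, and Notch1 with vehicle between −0.34 and 0.33. For n against o in liver, Notch1 ran between −0.29 and 0.19.

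Depth limits Jag2 in liver, where 3 reads equal 0.304 to 1.01 CPM in the E2 libraries.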
